A study of Mus musculus with 2 samples.

Results

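Cells with the markers of cross-presenting type 1 conventional dendritic cells (cDC1) were found in both sorted liver libraries, 307 of 4313 cells in all. Of these, 112 were among the 1248 cells kept from the CD122+CD49a+ library and 195 among the 3065 kept from the LSM library. A cell was kept with 500 or more detected genes and at most 10% of its unique molecular identifiers (UMIs, each one captured mRNA molecule) from mitochondrial genes. It was called a member with 2 or more UMIs summed over the 6 marker genes Xcr1, Clec9a, Tlr3, Cadm1, Rab7b and Gcsam, at least 1 of them from Xcr1 or Clec9a, and 0 UMIs of Siglech, Ccr7, Fscn1, Cd3d and Cd3g. The levels of those 11 genes therefore chose the cells, and they are described here without being read as findings.

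The study sorted cells from the liver of wild-type C57BL/6 mice aged 7 to 10 weeks and sequenced each sort on the 10X Genomics droplet platform. One library holds CD45+Lin-CD122+CD49a+ cells, where CD122 is the interleukin-2 receptor beta chain (Il2rb) and CD49a is integrin alpha 1 (Itga1). The other holds CD45+Lin-Sca-1+Mac-1+ cells, named LSM, where Sca-1 is encoded by Ly6a and Mac-1 includes integrin alpha M (Itgam). There was 1 library per sort and none of the labels says how many mice went into it, so library and sort cannot be told apart and no difference has a replicate check. No test was made, and every interval below is an exact 95% interval that covers counting error alone.

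Type 1 conventional dendritic cells take up dying cells and present the antigens they carry on MHC class I to CD8 T cells, a process called cross-presentation. They develop under the transcription factors IRF8, BATF3 and ID2 and depend on FLT3 ligand. XCR1 is the receptor through which they respond to the chemokine XCL1 from NK and CD8 T cells, CLEC9A binds actin filaments exposed on dead cells, TLR3 senses double-stranded RNA, and CADM1 is an adhesion molecule. Other conventional dendritic cells, called cDC2, carry SIRPA and depend more on IRF4, while plasmacytoid dendritic cells carry Siglec-H.

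Members were 8.97% of kept CD122+CD49a+ cells (7.45 to 10.7%) and 6.36% of kept LSM cells (5.52 to 7.28%). The libraries differed in depth. Members held a median of 3420.0 UMIs and 1063 genes in the CD122+CD49a+ library (844 to 7177 UMIs) and a median of 7870.0 UMIs and 1921 genes in the LSM library (2508 to 17933 UMIs). The other kept cells had medians of 1391 UMIs in the CD122+CD49a+ library and 4954 in the LSM library, so members were the deeper cells in both. When every cell was first thinned to 1500 UMIs and the rule then applied, 61 of 600 CD122+CD49a+ cells met it (10.2%, 7.87 to 12.9%) against 37 of 2966 LSM cells (1.25%, 0.880 to 1.72%). Thinning left out 648 CD122+CD49a+ cells and 99 LSM cells that held fewer UMIs. Only 5 of the 648 and 0 of the 99 had been members, so nearly all the cells lost were others. The share thus depended on the depth chosen, at 3.96% and 19.7% of CD122+CD49a+ cells for 1000 and 2000 UMIs. In LSM cells it was 0.492% and 1.35%. Each library passed 1 sort, so these are shares of sorted cells and not of liver dendritic cells. The 2 libraries shared 3 cell barcodes, and none of the 3 belonged to a member.

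The promoters of Xcr1 and Clec9a, the receptor genes of which every member had a UMI of at least 1, and of Ppt1 and Ifi205, which were high in members without being part of the rule, are shown as RefSeq windows of 300 bases around the start of each gene (build GRCm38.p6). Capitals mark a pair of interferon regulatory factor core sites, GAAANNGAA, on either strand. Of the 15 genes highest in members of both libraries, only Ppt1 and Ifi205 had windows with this pair. Windows of the others are not shown. The Xcr1 window is chr9:123861980-123862279 on the minus strand, Clec9a chr6:129408612-129408911 on the plus strand, Ppt1 chr4:122835977-122836276 on the plus strand and Ifi205 chr1:174031706-174032005 on the minus strand.
Xcr1: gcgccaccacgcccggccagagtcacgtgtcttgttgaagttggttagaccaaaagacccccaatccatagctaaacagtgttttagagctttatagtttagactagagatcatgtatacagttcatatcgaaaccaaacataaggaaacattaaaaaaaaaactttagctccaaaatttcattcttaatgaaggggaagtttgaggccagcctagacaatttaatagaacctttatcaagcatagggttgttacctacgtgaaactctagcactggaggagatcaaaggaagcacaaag
Clec9a: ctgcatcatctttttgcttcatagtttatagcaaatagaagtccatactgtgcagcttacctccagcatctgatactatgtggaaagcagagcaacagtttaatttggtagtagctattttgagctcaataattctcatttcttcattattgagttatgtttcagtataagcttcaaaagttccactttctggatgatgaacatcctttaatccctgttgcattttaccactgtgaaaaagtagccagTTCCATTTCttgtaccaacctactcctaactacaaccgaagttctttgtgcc
Ppt1: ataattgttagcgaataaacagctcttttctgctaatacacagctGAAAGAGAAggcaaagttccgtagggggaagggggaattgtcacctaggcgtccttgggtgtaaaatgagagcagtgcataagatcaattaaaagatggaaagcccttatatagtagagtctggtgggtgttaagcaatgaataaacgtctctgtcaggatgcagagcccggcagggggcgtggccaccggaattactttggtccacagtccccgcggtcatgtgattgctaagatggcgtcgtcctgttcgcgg
Ifi205: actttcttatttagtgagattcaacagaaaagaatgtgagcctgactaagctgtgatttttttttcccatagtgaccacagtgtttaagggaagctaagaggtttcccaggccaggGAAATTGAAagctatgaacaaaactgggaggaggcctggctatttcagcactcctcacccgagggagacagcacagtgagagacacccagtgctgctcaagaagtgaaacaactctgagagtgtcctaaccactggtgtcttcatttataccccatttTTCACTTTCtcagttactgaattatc

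Counted from the start of the gene, with negative numbers before it, the match in Clec9a begins at -2 and the match in Ppt1 at -205. Ifi205 held a match at -134 and another at 25. Of the 6 marker genes, 4 had a window in the RefSeq table (Cadm1 and Rab7b did not), and 1 of these 4 held the pair. Of the 15 genes that were highest in members of both libraries, 11 had 12 windows in the table (Cxx1a, Cxx1b, Shtn1 and Mnda did not), and 2 of the 12 held it (16.7%). The same motif was found in 8.56% of all 32851 windows. An ETS and IRF composite, GGAANNGAA, and the AP-1 motif TGANTCA that BATF family proteins bind were in none of these windows, against 8.24% and 7.81% of all windows. A match is a string of letters and no evidence of binding, and windows of this length hold no distal enhancers.

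Beginning with the receptors that the rule used, levels are given as CPM, a gene's share of the summed UMIs of a set of cells scaled to 1000000. Xcr1 (chr9:123852315-123862029, minus strand, GRCm38) was at 408 CPM in CD122+CD49a+ members (159 UMIs) and 81.6 CPM in LSM members (128 UMIs). Clec9a (chr6:129408862-129424763, plus strand) was at 303 CPM in CD122+CD49a+ members and 148 CPM in LSM members. A fixed UMI minimum asks for a higher CPM in shallower cells, and CD122+CD49a+ members had the lower median depth. The levels of these rule genes, and the receptor shares that follow, were taken at unequal depth. They are therefore described without being read as a difference between the libraries. In the CD122+CD49a+ library 46 members (41.1%) had UMIs of both receptors, 43 (38.4%) of Xcr1 without Clec9a and 23 (20.5%) of Clec9a without Xcr1. In the LSM library 44 (22.6%) had both, 39 Xcr1 alone and 112 (57.4%) Clec9a alone.

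Tlr3 was at 195 CPM in CD122+CD49a+ members and 65.6 CPM in LSM members. Rab7b, a small GTPase of the endosomal pathway, was at 211 CPM in CD122+CD49a+ members and 91.1 CPM in LSM members, and Gcsam at 92.4 CPM in CD122+CD49a+ members and 68.2 CPM in LSM members. Cadm1 stood apart from the other 5, with 69 UMIs in CD122+CD49a+ members (177 CPM) and 8 UMIs in LSM members (5.10 CPM). In LSM members Cadm1 was near the level of the other LSM cells, 4.45 CPM, although it was one of the genes that could choose them. The median member held 4 marker UMIs in the CD122+CD49a+ library and 3 in the LSM library, and all 6 markers were detected together in 3 CD122+CD49a+ members and in 0 LSM members. At 1500 UMIs a cell, Xcr1 was detected in 43.0% of 107 CD122+CD49a+ members and 12.3% of 195 LSM members, and Cadm1 in 28.0% and 1.54% of the same cells. Members had been chosen on these genes before thinning, at unequal depth. These shares are therefore not read as a difference between the libraries, and their height over other cells was partly set by the rule. Lymphocytes with 2 or more UMIs of Cd3d, Cd3e and Cd3g gave the background at that depth, with 0 of 229 CD122+CD49a+ lymphocytes and 0 of 74 LSM lymphocytes positive for Xcr1, which allow shares of up to 1.31% and 4.05%. For Cadm1 that background was 0.437% in CD122+CD49a+ lymphocytes and 1.35% in LSM lymphocytes, counts of 1 cell in each, against 3 of the 195 LSM members.

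**Figure D1:**
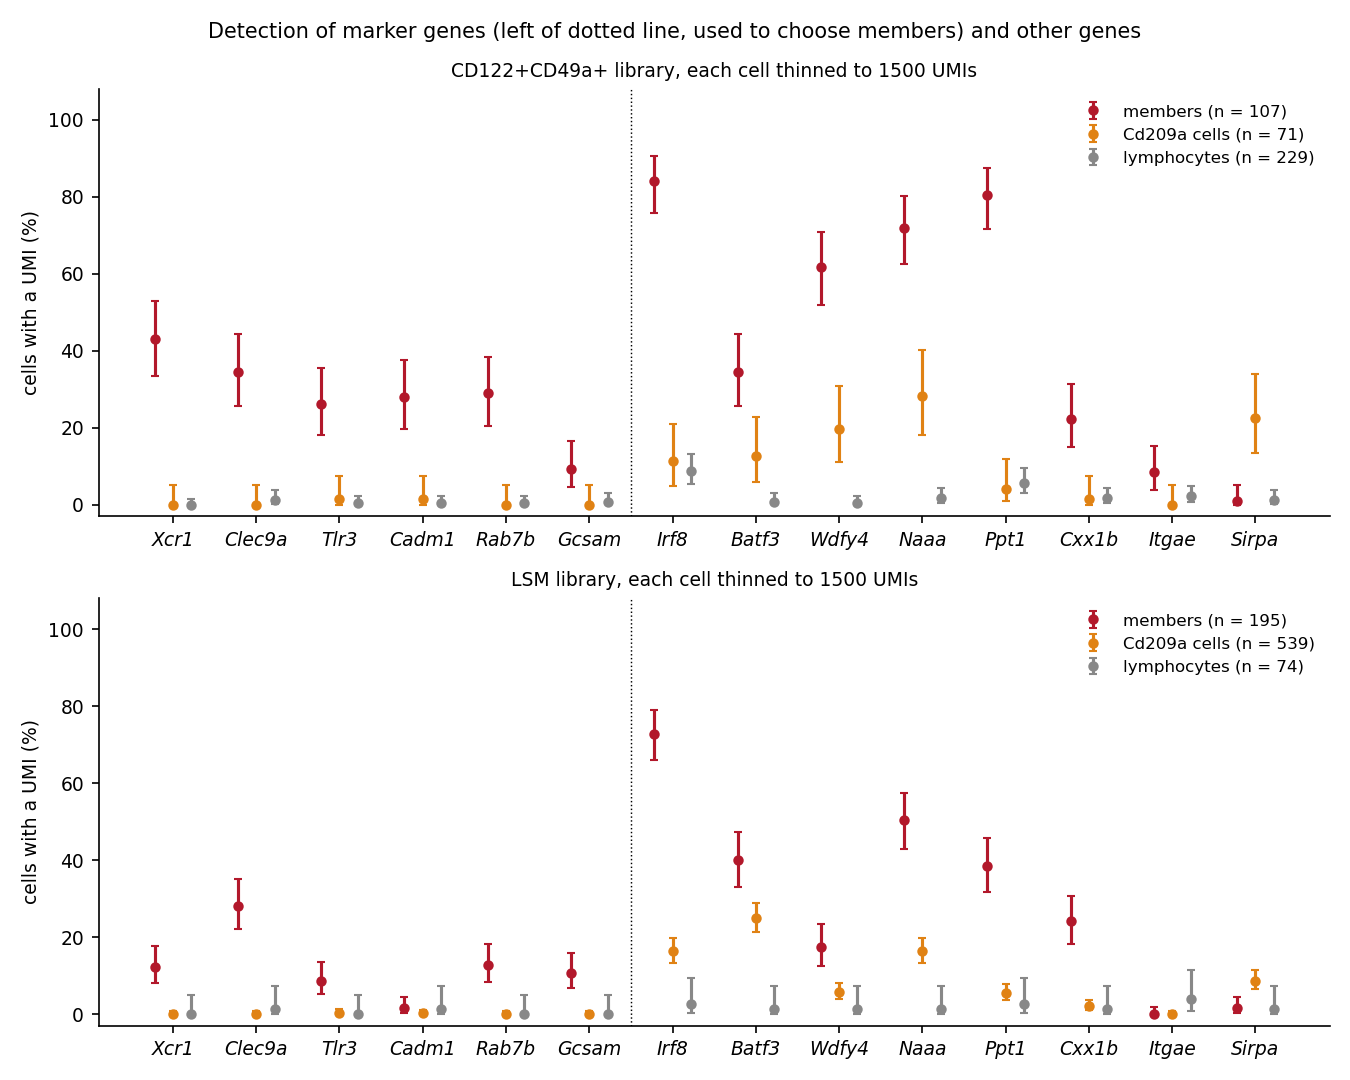
Share of cells with at least 1 UMI (y axis, percent) for genes that chose the members (left of the dotted line) and other genes (right), after thinning each cell to 1500 UMIs, in the CD122+CD49a+ library (top) and the LSM library (bottom). Points are shares and bars exact 95% binomial intervals. Members were chosen before thinning. Irf8 was detected in 84.1% of CD122+CD49a+ members and 72.8% of LSM members, whereas Sirpa was detected in 0.935% and 1.54% of them.

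The label was set beside cDC1 genes that the rule did not use. The list held 25 such genes, chosen from general knowledge of the cell type. It was fixed with earlier results of these data known, so it is not an independent check of the label. A gene counted as higher or lower at a ratio of 2-fold or more with 20 or more UMIs in the 2 groups together, a minimum that a gene could reach through either group. In the CD122+CD49a+ library 23 of the 25 reached that minimum, 20 were higher in members than in the other kept cells and 1, Cd8a, was lower, with a median log2 ratio of 2.99. Over all 8116 genes compared there, 5.09% were higher and 26.4% lower, with a median log2 ratio of -0.43. In the LSM library 22 of the 25 reached the minimum, 19 were higher and 1, Lpcat2, was lower, with a median log2 ratio of 1.58. Genes with 20 or more UMIs in the other kept cells alone numbered 16 in the CD122+CD49a+ library (13 higher, 1 lower) and 21 in the LSM library (18 higher, 1 lower). The same comparison called 2.22% of 11022 genes higher and 18.2% lower in the LSM library, with a median log2 ratio of -0.22. With edgeR's TMM scaling instead of library totals the counts over all genes in the CD122+CD49a+ library were 733 higher and 1436 lower in place of 413 and 2144. The cells that members were set against differed in kind, since 636 of the 1248 kept CD122+CD49a+ cells were lymphocytes by the definition above, against 85 of the 3065 kept LSM cells.

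The 3 transcription factors of the lineage were present in both libraries. Irf8 was at 1387 CPM in CD122+CD49a+ members and 232 CPM in the other cells of that library (ratio 5.96, 5.25 to 6.77), and at 981 CPM in LSM members and 387 CPM in the other LSM cells (2.54, 2.40 to 2.68). LSM cells with 2 or more UMIs of Siglech held more Irf8 still, 1707 CPM, so Irf8 alone did not mark the members. Batf3 was at 269.6 CPM in CD122+CD49a+ members and 75.8 CPM in the other cells (ratio 3.56), and at 393 CPM in LSM members and 183 CPM in the other LSM cells (2.14). Id2 was at 924 CPM in CD122+CD49a+ members and 620.1 CPM in the other cells (1.49), many of which were lymphocytes, a lineage that also uses Id2. Among LSM cells Id2 was at 885 CPM in members and 282 CPM in the other cells (3.14).

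The 3 genes that follow are on the cDC1 list and act in antigen handling or the lysosome, a grouping made after their values were seen. Wdfy4, which mouse cDC1 need for cross-presentation of cell-associated antigens, was at 675 CPM in CD122+CD49a+ members and 100.4 CPM in the other cells (6.73, 5.57 to 8.14). It was at 130.0 CPM in LSM members and 48.6 CPM in the other LSM cells (2.67, 2.28 to 3.13). Ppt1, a lysosomal thioesterase, was at 1229.9 CPM in CD122+CD49a+ members and 139 CPM in the other cells (8.83), and at 458 CPM in LSM members and 94.7 CPM in the other LSM cells (4.83). Naaa, a lysosomal amidase, was at 991 CPM in CD122+CD49a+ members and 172 CPM in the other cells (5.76), and at 485 CPM in LSM members and 120.3 CPM in the other LSM cells (4.03). All 3 were thus above the rest of their own library in both sorts. Cd8a, which marks cDC1 of mouse lymphoid organs, was sparse in these cells, with 5 UMIs in CD122+CD49a+ members (12.8 CPM) and 28 UMIs in LSM members (17.8 CPM). In LSM members it was nonetheless higher by 2-fold or more than in LSM Cd209a cells, which are defined below. It was lower than in LSM Siglech cells.

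The 15 genes with the largest smaller-of-both ratio over the rest of the library, at 50 CPM or more in members of both, were led by Snx22, a sorting nexin, at 97.6 CPM in CD122+CD49a+ members and 7.68 CPM in the other cells (12.7, 6.83 to 24.9) and at 63.7 CPM in LSM members and 11.6 CPM in the other LSM cells (5.51, 4.26 to 7.10). Cxx1a and Cxx1b, a pair of near-identical genes derived from a retrotransposon whose reads may be split between them, followed with ratios of 8.90 and 9.30 in the CD122+CD49a+ library and 5.17 and 4.86 in the LSM library. Ifi205, an interferon-inducible gene of the HIN-200 family, had ratios of 9.03 in the CD122+CD49a+ library and 4.35 in the LSM library. Mycl, a MYC family transcription factor that supports cDC1 in mice, was at 105 CPM in CD122+CD49a+ members and 6.14 CPM in the other cells (17.1, 8.83 to 35.8), and at 51.0 CPM in LSM members and 18.1 CPM in the other LSM cells (2.82). The rest of the 15 were Ppt1, Naaa and Wdfy4, described above, with Shtn1, Mnda, Cst3, Gatm, St3gal5, Ckb and Tubb2a. Cst3, the cysteine protease inhibitor cystatin C that is abundant in dendritic cells, was at 27976 CPM in CD122+CD49a+ members and 3725 CPM in the other cells, and at 24862 CPM in LSM members and 7942 CPM in the other LSM cells.

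Over the 8028 genes that could be compared in both libraries, 409 were higher by 2-fold or more in CD122+CD49a+ members and 124 in LSM members, and 81 were on both lists, 19.8% of the CD122+CD49a+ list and 65.3% of the LSM list. At 4-fold there were 86 and 12, and the 12 of the LSM list were all on the CD122+CD49a+ list. There were 653 genes lower by 2-fold or more in members of both libraries, and the 10 with the largest drop are named here by size. Ccl5, a chemokine of T and NK cells, was at 128 CPM in CD122+CD49a+ members and 10246 CPM in the other cells, and at 8.28 CPM in LSM members and 1051 CPM in the other LSM cells. The others of the 10 were Ctla2a, Gimap6, Gzma, Ltb, Gimap1, Cyp4f18, Nkg7, Cd69 and Clec4a3. Nkg7, a cytotoxic granule protein, was at 7.70 CPM in CD122+CD49a+ members (3 UMIs) and 1163 CPM in the other cells.

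**Figure D2:**
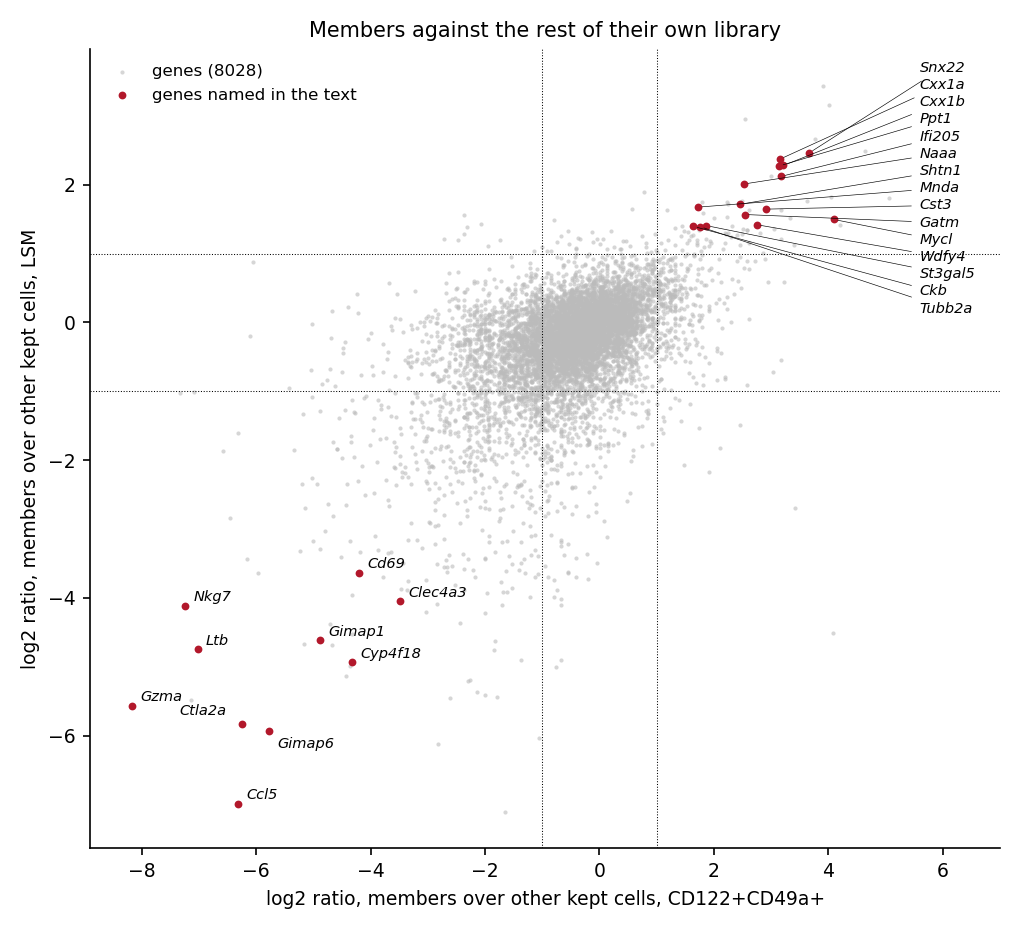
Log2 ratio of summed-UMI CPM, members over the other kept cells, in the CD122+CD49a+ library (x axis) and the LSM library (y axis) for 8028 genes with 20 or more UMIs in each comparison. Dotted lines mark 2-fold, rule genes are left out, and red points are the 15 genes highest and the 10 lowest in members of both. Snx22, Cxx1a, Cxx1b and Ppt1 lie at the upper right and Ccl5 and Gzma at the lower left.

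Members were then set against another class of dendritic cells in each library, cells with 2 or more UMIs of Cd209a and none of Xcr1, Clec9a or the excluded genes. Cd209a is a C-type lectin of cDC2 and monocyte-derived dendritic cells. There were 77 such cells in the CD122+CD49a+ library and 539 in the LSM library. Of the 25 cDC1 genes, 21 reached the minimum in the CD122+CD49a+ library and 20 were higher in members, with a median log2 ratio of 2.52. Over all 3091 genes compared there, 8.83% were higher and 10.6% lower, with a median of -0.05. In the LSM library 20 reached the minimum and 17 were higher in members, with a median log2 ratio of 2.38, against 5.18% higher and 7.72% lower of 8017 genes and a median of 0.02. None of the genes that reached the minimum was lower in members than in Cd209a cells of either library. The minimum itself favours genes that are high in members. Of the 21 genes in the CD122+CD49a+ library, 16 reached it only with the UMIs of members counted, and the 5 with 20 or more UMIs in Cd209a cells alone (Batf3, Irf8, Id2, Wdfy4 and Naaa) had 4 higher and a median log2 ratio of 2.16. In the LSM library 15 of the 20 had 20 or more UMIs in Cd209a cells alone, of which 12 were higher, with a median of 2.14.

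MHC class II genes did not separate members from Cd209a cells by 2-fold. Of 10 MHC class II genes, 0 were 2-fold higher or lower in members than in Cd209a cells in either library, with median log2 ratios of -0.38 in the CD122+CD49a+ library and -0.30 in the LSM library. H2-Ab1 was at 7185 CPM in CD122+CD49a+ members and 8801 CPM in Cd209a cells, and at 7295 CPM in LSM members and 7392 CPM in LSM Cd209a cells. The 10 genes together made up 41333 CPM in CD122+CD49a+ members and 39232 CPM in LSM members. At 1500 UMIs a cell, all 107 CD122+CD49a+ members and 193 of 195 LSM members held 3 or more UMIs of them. Against the other kept cells 6 of the 10 were higher in CD122+CD49a+ members (10 with TMM scaling), and 0 were higher in LSM members (1 with TMM scaling).

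Genes of cDC2 and monocyte-derived cells separated the members in the opposite direction. Of 15 such genes, 11 of the 13 that reached the minimum were lower in CD122+CD49a+ members than in Cd209a cells and 12 of 15 were lower in LSM members, with median log2 ratios of -3.45 and -2.12, and Cd209a itself, among them, had chosen the cells compared with. Sirpa, the signal-regulatory receptor that marks cDC2, was at 7.70 CPM in CD122+CD49a+ members (3 UMIs) and 181 CPM in Cd209a cells. Sirpa was at 5.10 CPM in LSM members (8 UMIs) and 60.5 CPM in LSM Cd209a cells (ratio 0.0843, 0.0359 to 0.169). Irf4, the factor associated with cDC2, had 0 UMIs in CD122+CD49a+ members and 3 in LSM members, against 25.1 CPM in CD122+CD49a+ Cd209a cells and 22.6 CPM in LSM Cd209a cells. Zeb2, a repressor with a role in cDC2 and plasmacytoid cells, was at 25.7 CPM in CD122+CD49a+ members and 301 CPM in Cd209a cells, and at 22.3 CPM in LSM members and 97.5 CPM in Cd209a cells.

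By size alone, the 8 genes highest over Cd209a cells in both libraries were Cxx1b, Ppt1, Cxx1a, P2ry14, Ifi205, Snx22, Irf8 and Id2. Ppt1 was 22.3-fold higher in CD122+CD49a+ members (12.3 to 44.9) and 8.86-fold higher in LSM members (7.48 to 10.5). P2ry14, a receptor for UDP-glucose, was at 103 CPM in CD122+CD49a+ members with 0 UMIs in Cd209a cells, and at 51.6 CPM in LSM members and 4.89 CPM in LSM Cd209a cells. The 8 lowest were Clec10a, Clec4a1, Mgl2, Clec4a3, Mcemp1, Ccl9, Sirpa and Tmem176a, of which Clec10a, Clec4a1, Mgl2 and Clec4a3 encode C-type lectins. Clec10a was at 5.14 CPM in CD122+CD49a+ members and 422 CPM in Cd209a cells, and at 10.8 CPM in LSM members and 324 CPM in LSM Cd209a cells.

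Uptake and processing genes did not move as a block. Of 20 genes, 4 were higher and 6 lower of the 13 that reached the minimum against Cd209a cells in the CD122+CD49a+ library, and 3 were higher and 4 lower of 19 in the LSM library. The median log2 ratios were -0.48 in the CD122+CD49a+ library and -0.35 in the LSM library. Cybb, the catalytic subunit of the phagocyte NADPH oxidase, was lower in members of both, at 33.4 CPM in CD122+CD49a+ members and 432 CPM in Cd209a cells and at 23.6 CPM in LSM members and 213 CPM in LSM Cd209a cells. Cd36, a scavenger receptor, was higher in members of both, at 157 CPM in CD122+CD49a+ members against 5.02 CPM in Cd209a cells (1 UMI) and at 28.7 CPM in LSM members against 2.44 CPM in Cd209a cells. Sec22b, a vesicle SNARE studied in cross-presentation, was at 15.4 CPM in CD122+CD49a+ members (6 UMIs) and 20.1 CPM in Cd209a cells (4 UMIs), a difference that was not detectable at this depth.

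MHC class I and its peptide loading genes were near even. Of 16 genes, 2 were higher and 0 lower than in Cd209a cells in CD122+CD49a+ members, of 15 that reached the minimum, and 1 was higher and 0 lower of 16 in LSM members. Psmb9, an immunoproteasome subunit, was the gene common to both, at 657 CPM in CD122+CD49a+ members and 236 CPM in Cd209a cells and at 725 CPM in LSM members and 343 CPM in LSM Cd209a cells. H2-K1, a classical class I heavy chain, was lower in members than in the other kept cells of both libraries, with ratios of 0.349 in the CD122+CD49a+ library and 0.465 in the LSM library, and the LSM ratio passed inside 2-fold with TMM scaling.

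Other dendritic cell classes were large enough for a comparison in the LSM library. Mature dendritic cells there, 140 cells with UMIs of both Ccr7 and Fscn1, had been kept apart from members by the rule. Of 17 mature dendritic cell genes 16 reached the minimum, 0 were higher and 15 were lower in LSM members, with a median log2 ratio of -6.61. Over all 6247 genes in that comparison 24.4% were higher and 15.3% lower, with a median of 0.21, and TMM scaling gave 1230 higher and 1186 lower in place of 1522 and 957. Fabp5, a fatty acid binding protein, was at 28.0 CPM in LSM members and 4636 CPM in Ccr7 Fscn1 cells, and Relb, an NF-kappaB subunit of maturation, at 29.3 CPM in LSM members and 823 CPM in those cells. Cd86, a costimulatory ligand, was the 1 gene of the 16 within 2-fold, at 86.7 CPM in LSM members and 63.5 CPM in Ccr7 Fscn1 cells. Of the 25 cDC1 genes, 17 of 20 were higher in LSM members than in those cells and 0 were lower, although 15 of the 20 reached the minimum only with the UMIs of members counted. Batf3 was an exception to the pattern, at 393 CPM in LSM members and 481 CPM in Ccr7 Fscn1 cells.

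Siglech cells were 167 LSM cells with 2 or more Siglech UMIs and none of Xcr1, Clec9a, Ccr7, Fscn1, Cd3d or Cd3g. Members had 0 Siglech UMIs by the rule, so the directions of the plasmacytoid and cDC1 lists were partly set by these choices. Against Siglech cells, 0 of 10 plasmacytoid genes were higher in LSM members and all 10 were lower, with a median log2 ratio of -5.01. Over all 6664 genes there 8.66% were higher and 16.5% lower, with a median of -0.20, and TMM scaling gave 736 higher and 829 lower in place of 577 and 1102. Ly6d, a surface protein used to mark lymphoid-biased precursors of plasmacytoid cells, was at 2.55 CPM in LSM members (4 UMIs) and 4279 CPM in Siglech cells. Tcf4, the defining transcription factor of plasmacytoid cells, was at 50.3 CPM in LSM members and 974 CPM in Siglech cells. Of the 25 cDC1 genes 16 of 20 were higher in LSM members and 1, Cd8a, was lower, and 13 of the 20 reached the minimum only with the UMIs of members counted. In the CD122+CD49a+ library these classes held 1 and 7 cells and were not compared.

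Cells that met the same rule were then compared between the sorts, as the ratio of CD122+CD49a+ members over LSM members. Of 6027 genes 16.1% were higher by 2-fold or more and 14.9% lower, with a median log2 ratio of -0.05. Of the 25 cDC1 genes outside the rule, 24 reached the minimum, 14 were higher and 0 were lower, with a median log2 ratio of 1.22. Cd209a cells give the same contrast between libraries without the members, and there 15 of the 25 reached the minimum, 2 were higher and 1 was lower, with a median of 0.45 beside a median of 0.18 over all genes. Over the 7329 genes of that contrast 22.2% were higher and 11.4% lower. Of the 24 genes compared in members, 20 had 20 or more UMIs in LSM members alone, and 10 of these were higher with a median log2 ratio of 0.96. The difference between members and Cd209a cells in these shifts was not tested. The fixed UMI minimum asked for a higher CPM of marker genes in the shallower CD122+CD49a+ cells. Ppt1 was at 338 CPM in LSM members with exactly 2 marker UMIs and 507 CPM in those with 3 or more. In CD122+CD49a+ members it was at 829 and 1323 CPM. The part of the minimum in these shifts was not tested, and the list was not counted again in members chosen after thinning.

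Wdfy4 was at 675 CPM in CD122+CD49a+ members and 130.0 CPM in LSM members, 5.19-fold higher (4.31 to 6.27), and in Cd209a cells the same ratio was 3.68. At 1500 UMIs a cell, Wdfy4 was detected in 61.7% of CD122+CD49a+ members (51.8 to 70.9%) and 17.4% of LSM members (12.4 to 23.5%). Itgae, the integrin chain CD103 that marks cDC1 of many peripheral tissues, had 30 UMIs in 21 of 112 CD122+CD49a+ members (77.0 CPM) and 2 UMIs in LSM members (1.27 CPM), a ratio of 60.4 (15.3 to 522). At equal depth 8.41% of 107 CD122+CD49a+ members had an Itgae UMI and 0 of 195 LSM members did. Havcr2, the inhibitory receptor TIM-3, had 56 UMIs in CD122+CD49a+ members and 47 in LSM members, a ratio of CPM of 4.80 (3.20 to 7.23), with a ratio of 1.49 in Cd209a cells. Cd36 was at 157 CPM in CD122+CD49a+ members and 28.7 CPM in LSM members (5.46, 3.66 to 8.22), with a ratio of 2.05 in Cd209a cells.

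Ppt1 was at 1229.9 CPM in CD122+CD49a+ members and 458 CPM in LSM members (2.69, 2.39 to 3.02), with a ratio of 1.07 in Cd209a cells. Tlr11 and Tlr12, partner receptors for protozoan profilin, had ratios of 10.1 (5.01 to 21.6) and 7.19 on 12 and 14 UMIs in LSM members. Not every gene of the lineage was higher. Irf8 was at 1387 CPM in CD122+CD49a+ members and 981 CPM in LSM members (1.41, 1.28 to 1.56), Id2 at 924 and 885 CPM (1.05), Ifi205 at 508 and 574 CPM (0.885) and Cd24a, a surface glycoprotein of cDC1, at 454 and 369.6 CPM (1.23). Batf3 was lower without reaching 2-fold, at 269.6 CPM in CD122+CD49a+ members and 393 CPM in LSM members (0.686, 0.552 to 0.845).

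**Figure D3:**
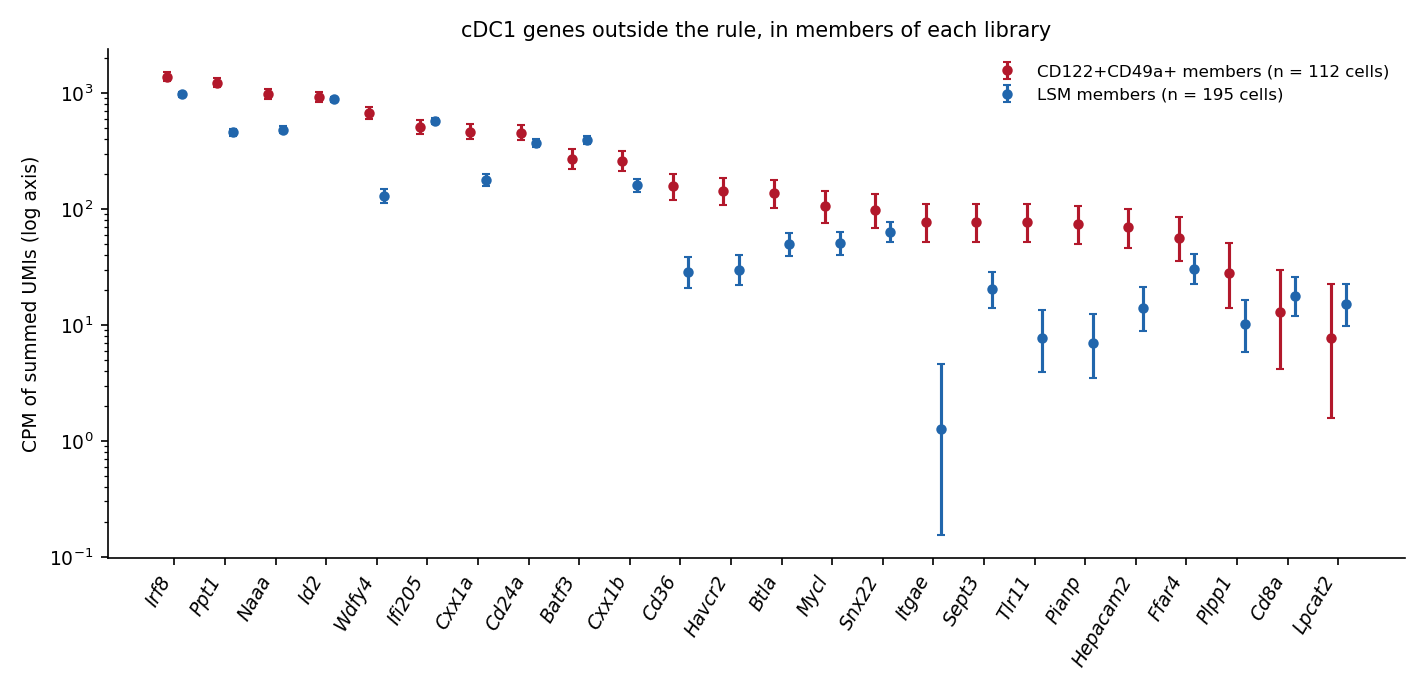
CPM of summed UMIs (log axis) of the cDC1 genes outside the rule with 20 or more UMIs in members of both libraries together, in CD122+CD49a+ members (red, 112 cells) and LSM members (blue, 195 cells), with exact 95% Poisson intervals. Itgae is the gene furthest apart, at 77.0 CPM in CD122+CD49a+ members and 1.27 CPM in LSM members, while Id2 and Ifi205 lie close together.

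The make-up of the members also differed between the libraries, and its part in these differences was not tested. Values were also taken in members with an Xcr1 UMI, 89 in the CD122+CD49a+ library and 83 in the LSM library, a choice made after the values were seen. Xcr1 is a gene of the rule and its detection depends on depth, with medians of 3501 UMIs in these CD122+CD49a+ members and 8665 in these LSM members. Among these, Wdfy4 was at 672 CPM in CD122+CD49a+ members and 153 CPM in LSM members, Itgae at 86.0 and 1.36 CPM, and Irf8 at 1406 and 1024 CPM. Naaa, at 995 CPM in CD122+CD49a+ members and 549.6 CPM in LSM members, passed inside 2-fold. Cd209a was at 18.0 CPM in CD122+CD49a+ members and 79.0 CPM in LSM members, and at 3.07 and 33.9 CPM among those with an Xcr1 UMI. LSM members without an Xcr1 UMI held 119 CPM of Cd209a, with a UMI in 24.1% of the 112 cells.

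Cells on either side of the threshold are described next. In the CD122+CD49a+ library, the 23 members with exactly 2 marker UMIs had 1006 CPM of Irf8, 829 CPM of Ppt1 and 54.4 CPM of Cd209a. The 47 cells just outside, with exactly 1, had 710.4, 365 and 442 CPM of the same genes. In the LSM library the 61 members with exactly 2 had 829 CPM of Irf8, 338 CPM of Ppt1 and 157 CPM of Cd209a, and the 257 cells with exactly 1 had 655, 217 and 319 CPM. Cells that had 2 or more marker UMIs but none of Xcr1 or Clec9a, 16 in the CD122+CD49a+ library and 112 in the LSM library, resembled the members, with 1339 and 1051 CPM of Irf8 and 0 and 64.0 CPM of Cd209a. Another 10 of 122 CD122+CD49a+ cells and 24 of 219 LSM cells met the marker rule and were left out for a UMI of an excluded gene. Irf8 was detected in 91.3% of the 23 CD122+CD49a+ members with exactly 2 marker UMIs and 42.6% of the 47 cells with exactly 1, and in 85.2% of the 61 LSM members and 66.9% of the 257 LSM cells. Whether cells near the threshold are 1 graded population or a mixture of cell types was not tested.

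**Figure D4:**
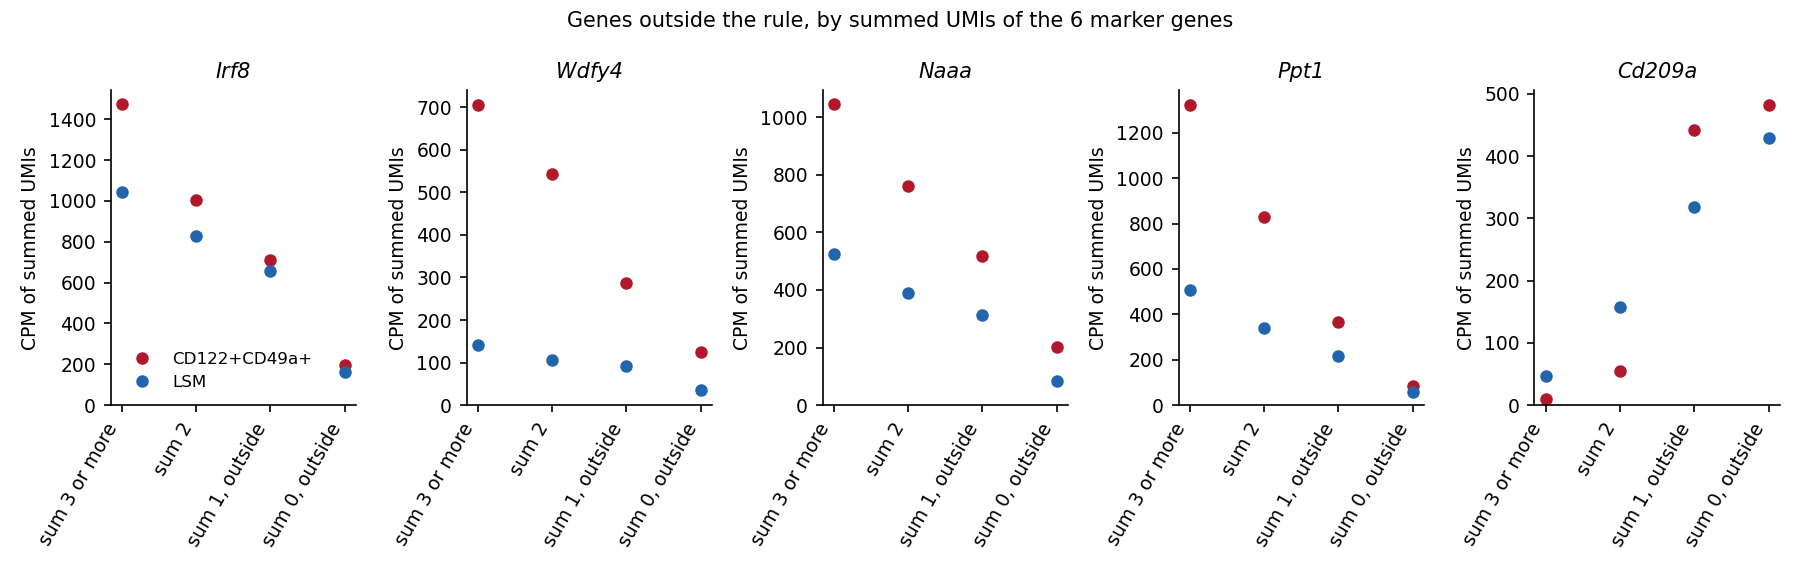
CPM of summed UMIs for 5 genes outside the rule (one panel each, axes starting at 0), in cells grouped by their summed UMIs of the 6 marker genes, in the CD122+CD49a+ library (red) and the LSM library (blue). Groups of sum 3 or more and sum 2 are members, and groups of sum 1 and sum 0 are kept cells outside the rule with no UMI of an excluded gene. Irf8, Wdfy4, Naaa and Ppt1 are lower, and Cd209a is higher, in cells with fewer marker UMIs.

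Genes of general conventional dendritic cell identity followed the lineage genes. Of 11 measured, 6 were higher in CD122+CD49a+ members than in LSM members and 0 lower, with a median log2 ratio of 1.02 (0.58 in Cd209a cells). Flt3, the receptor for the growth factor these cells need, was at 221 CPM in CD122+CD49a+ members and 74.6 CPM in LSM members (2.96, 2.22 to 3.95). Zbtb46, a factor restricted to conventional dendritic cells among immune cells, was at 79.6 CPM in CD122+CD49a+ members and 29.3 CPM in LSM members (2.72). Itgax, the integrin CD11c, was at 205 CPM in CD122+CD49a+ members and 58.0 CPM in LSM members (3.54), and its ratio in Cd209a cells was 3.76. Of 14 growth factor and cytokine receptor genes 4 were higher and 0 lower (median log2 ratio 0.49). Of 8 checkpoint and costimulation genes 3 were higher (Btla, Havcr2 and Icosl) and 0 lower (0.56). In Cd209a cells the same contrast had 7 of 15 receptor genes higher and 1 lower (0.75). Of 12 checkpoint and costimulation genes there, 6 were higher, among them Btla and Icosl, and 0 were lower. Both lists thus leaned higher in Cd209a cells also, and not in members alone. Of 21 transcription factor genes 4 were higher and 3 lower, with a median log2 ratio of 0.14, which is near the 16.1% and 14.9% of all genes.

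Of 10 MHC class II genes, 2 were higher in CD122+CD49a+ members than in LSM members and 0 lower. They were H2-Oa (187 CPM in CD122+CD49a+ members and 93.0 CPM in LSM members) and H2-Ob (211 and 87.3 CPM), the chains of the H2-O modulator of peptide loading. Among 16 class I genes, Nlrc5, the class I transactivator, was higher on 10 and 14 UMIs (2.88, 1.14 to 6.97). The immunoproteasome genes Psmb8 (793 CPM in CD122+CD49a+ members and 1624 CPM in LSM members) and Psme2 (247 and 642 CPM) were lower, and Psmb8 passed inside 2-fold with TMM scaling. Of 9 sensing genes that reached the minimum, Tlr11, Tlr12 and Cd180 were higher and 0 were lower. Tlr7, a sensor of single-stranded RNA that mouse cDC1 lack, had 0 UMIs in members of both libraries, against 17.8 CPM in the other LSM cells.

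Interferon-stimulated and immediate early genes leaned lower in CD122+CD49a+ members. Of 8 interferon-stimulated genes that reached the minimum, 4 were lower and 0 higher, with a median log2 ratio of -0.95, where in Cd209a cells 1 of 11 was lower and 4 were higher with a median of 0.74. Isg15, a ubiquitin-like modifier, was at 69.3 CPM in CD122+CD49a+ members and 192 CPM in LSM members (0.361, 0.234 to 0.536). Few cells carried its UMIs, 12 of 112 CD122+CD49a+ members with 74.1% of the UMIs in 5 cells, and 56 of 195 LSM members with 50.8% in 5 cells. Rsad2 had 2 UMIs and Gbp2 1 UMI in CD122+CD49a+ members. Of 13 immediate early and heat shock genes, which tissue dissociation is known to induce, 6 were lower and 1 higher, with a median log2 ratio of -0.70. Jun was at 190.0 CPM in CD122+CD49a+ members and 871 CPM in LSM members (0.218), and Fosb at 241 and 99.4 CPM (2.43). In Cd209a cells 6 of the 13 were also lower, with a median of -0.99, and the Jun ratio there was 0.245.

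Of 9 cDC2 and monocyte genes that reached the minimum, 4 were lower in CD122+CD49a+ members and 1 higher. Ms4a4c, a tetraspan membrane protein, had 4 UMIs in CD122+CD49a+ members (10.3 CPM) and 171 in LSM members (109 CPM), a ratio of 0.0942 (0.0254 to 0.246), against 0.861 in Cd209a cells. Fcer1g, the Fc receptor gamma chain, was at 244 CPM in CD122+CD49a+ members and 714 CPM in LSM members (0.341, 0.274 to 0.421), against 1.14 in Cd209a cells. Ms4a6c was at 74.5 CPM in CD122+CD49a+ members and 268 CPM in LSM members (0.278). Among LSM members, Fcer1g was at 480.4 CPM in cells with an Xcr1 UMI and 922 CPM in cells without one. Ms4a6c was at 205 and 324 CPM in the same cells.

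**Figure D5:**
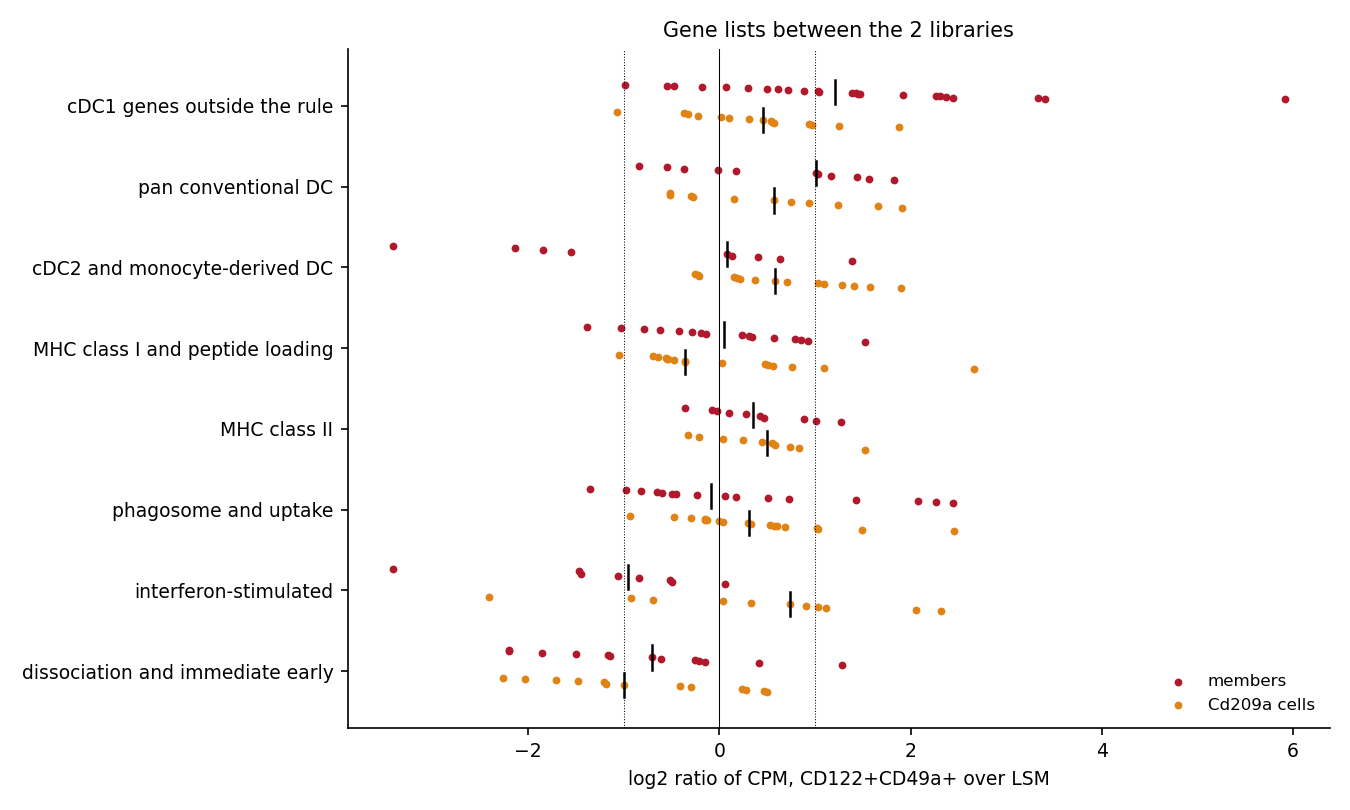
Log2 ratio of CPM between the libraries (x axis, CD122+CD49a+ over LSM) for genes of 8 lists with 20 or more UMIs, in members (red) and in Cd209a cells (orange). Black ticks are list medians and dotted lines 2-fold. The cDC1 list has a median of 1.22 in members and 0.45 in Cd209a cells, and the immediate early list lies below 0 in both (-0.70 and -0.99).

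Cytokine and chemokine genes were uneven in members, with a list sum of 629 CPM in CD122+CD49a+ members and 1034 CPM in LSM members. The other kept cells held 11143 and 4761 CPM. Tgfb1 had a UMI in 45 of 112 CD122+CD49a+ members and 122 of 195 LSM members. Il12b, the interleukin-12 subunit that activated cDC1 secrete, had 0 UMIs in members of both libraries. The rule had left out cells with a UMI of Ccr7 or Fscn1, and Il12b was higher in LSM Ccr7 Fscn1 cells than in LSM members. Its absence from members was thus partly set by the rule. Of 11 genes of this list that reached the minimum between the libraries, 3 were higher and 5 lower in CD122+CD49a+ members. Cxcl9, a chemokine that draws CXCR3-bearing T cells, was at 77.0 CPM in CD122+CD49a+ members (30 UMIs) and 533 CPM in LSM members (837 UMIs), a ratio of 0.144 (0.0968 to 0.208). These UMIs came from few cells, 3 of 112 CD122+CD49a+ members and 49 of 195 LSM members, and 1 cell held 66.7% of them in the CD122+CD49a+ library. Cxcl10 was at 5.14 CPM in CD122+CD49a+ members (2 UMIs) and 61.8 CPM in LSM members. Ccl5 ran the other way, at 128 CPM in CD122+CD49a+ members and 8.28 CPM in LSM members (15.5, 8.29 to 31.1). Ccl5 was also at 10246 CPM in the other CD122+CD49a+ cells and 1051 CPM in the other LSM cells, and the part that free RNA has in its level in members was not tested.

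By size alone, the 10 genes highest in CD122+CD49a+ members over LSM members were Ccl5, Lars2, Dnase1l3, Tbc1d9, Ctdsp2, Cd36, Wdfy4, Dennd1b, Havcr2 and Tgfbi. Dnase1l3, an enzyme that degrades DNA in microparticles of dying cells, was at 113 CPM in CD122+CD49a+ members and 11.5 CPM in LSM members (9.85, 5.58 to 18.1), against a ratio of 2.74 in Cd209a cells. Lars2, a mitochondrial leucyl-tRNA synthetase, was at 177 CPM in CD122+CD49a+ members and 12.7 CPM in LSM members (13.9). Tgfbi, a secreted matrix protein, had a ratio of 4.66 in members and 5.09 in Cd209a cells, so it was as far apart in the other cell set. The 10 lowest were Ms4a4c, Cebpb, Apoe, Cxcl9, Wfdc17, Dusp2, Sdf2l1, Rraga, Anxa2 and S100a4. Cebpb, a transcription factor of myeloid cells, was at 12.8 CPM in CD122+CD49a+ members (5 UMIs) and 129 CPM in LSM members (0.0997, 0.032 to 0.237), against a ratio of 0.554 in Cd209a cells. Apoe, an apolipoprotein of macrophages, was at 15.4 CPM in CD122+CD49a+ members (6 UMIs) and 142 CPM in LSM members, and its direction turned when members with 5 or more UMIs of Kupffer cell genes were left out (log2 ratio 1.14).

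A small share of members carried cell cycle transcripts. Of 12 proliferation genes, 5 were higher in CD122+CD49a+ members than in LSM members and 0 lower, with a median log2 ratio of 0.89, and in Cd209a cells 4 of 9 were higher. Ube2c, a ubiquitin-conjugating enzyme of mitosis, was at 118 CPM in CD122+CD49a+ members (46 UMIs in 10 cells) and 26.8 CPM in LSM members (42 UMIs in 10 cells). Top2a was at 71.9 CPM in CD122+CD49a+ members (28 UMIs in 8 cells) and 16.6 CPM in LSM members (26 UMIs in 11 cells). At 1500 UMIs a cell, 7.48% of CD122+CD49a+ members (3.28 to 14.2%) and 4.62% of LSM members (2.13 to 8.58%) had 3 or more UMIs of the list, intervals that overlap.

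Ptprc, which encodes the CD45 protein that both sorts selected, was detected in 88 of 112 CD122+CD49a+ members (537 CPM) and 153 of 195 LSM members (191 CPM). Transcripts of the other sorted proteins were less even. Il2rb had 2 UMIs and Itga1 3 UMIs in the 112 CD122+CD49a+ members, against 306 and 49.2 CPM in the other cells of that library. Itgam had 21 UMIs in the 195 LSM members (13.4 CPM) and was at 38.3 CPM in the other LSM cells. Its symbol is repeated in the matrix, and only the row that GENCODE names Itgam was counted. Ly6a was at 51.4 CPM in CD122+CD49a+ members and 159 CPM in LSM members, with a UMI in 58 of the 195 LSM members. Members therefore held little mRNA of Il2rb and Itga1, and few UMIs in the counted row of Itgam. The data hold no protein measurement of the sort.

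Markers of other cells were looked for in members as whole lists. Of 11 T and NK cell genes, 5 were at 0 UMIs in CD122+CD49a+ members and 10 in LSM members, and the list summed to 20.5 CPM in CD122+CD49a+ members (3581 CPM in the other cells) and 6.37 CPM in LSM members (246 CPM in the other cells). The rule had left out cells with a UMI of Cd3d or Cd3g, so low T cell levels were partly set by the choice of members. Of 122 CD122+CD49a+ cells that met the marker rule, 6 had a Cd3d UMI and 3 a Cd3g UMI. Of 219 such LSM cells, 5 had a Cd3d UMI and 0 a Cd3g UMI. Kupffer cell genes had 12 UMIs in CD122+CD49a+ members and 266 in LSM members, 187 of them in 1 LSM cell. The B cell, neutrophil, basophil and mast cell, endothelial and stromal, and red cell and platelet lists each summed to at most 7.01 CPM in members of either library. Plasma cell, monocyte and hepatocyte lists summed to 61.6, 82.2 and 71.9 CPM in CD122+CD49a+ members and to 103, 55.4 and 84.1 CPM in LSM members, with Alb and Ttr at 0 in both. Doublets were kept. The highest doublet scores, taken at a rate of 0.8% per 1000 barcodes, marked 0 of 112 CD122+CD49a+ members and 5 of 195 LSM members.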

How the data were processed

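Gene by barcode matrices of UMI counts were deposited by the authors, 1 per sort (1655 barcodes and 2632303 UMIs for CD122+CD49a+, 3133 barcodes and 16226070 UMIs for LSM). The submitters' processing notes name STAR, Seurat 2.3.0 and GRCm38, and the software version in the matrices is 3.0.1 per the file headers. For the choice of barcodes, the method was not given in the sources used here. From these counts, kept cells and members were found by the rule in the text, UMIs were summed per library and cell class, and CPM, ratios and exact conditional 95% intervals were computed (Python 3.11.15, numpy 2.4.6, scipy 1.17.1, pandas 2.3.3, scanpy 1.11.5; figures with matplotlib 3.10.9). Shares have Clopper-Pearson intervals, a share of 0 allows 3 counts, and a ratio against 0 UMIs uses a floor of 3 counts over the group. UMIs correct for amplification, but the intervals leave out variation between animals and cells. With 1 library per group no test was possible.

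The members and gene lists were chosen with earlier results of these data known. Beside the lists, the text names genes by size, leaving out rule, mitochondrial, ribosomal, predicted and immunoglobulin or T cell receptor segment genes. These were the 15 highest and 10 lowest in members of both libraries (by the smaller ratio, at 50 CPM or more), the 10 in each direction between libraries (100 CPM or more in the higher, 30 UMIs together), and 8 in each direction against Cd209a cells. Gene positions come from GENCODE, which held 27645 of 27998 gene IDs (98.7%). Alternatives were other gene, mitochondrial, marker and UMI minimums, no excluded genes, thinning to 1000, 1500 or 2000 UMIs, mean CPM per cell, TMM scaling (edgeR 4.0.16, R 4.3.3), a fold of 4 and removal of predicted doublets. Other choices were added after seeing the data, namely leaving out members with 5 or more Kupffer cell UMIs, leaving out members with a Cd209a UMI, and keeping members with an Xcr1 UMI. Scrublet's automatic threshold marked 0.242% of CD122+CD49a+ barcodes and 0.319% of LSM barcodes, so the highest scores at 0.8% per 1000 barcodes were used for that alternative. The ratio and thinning steps were tested on simulated data.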

Additional observations from a re-analysis of the deposited data

Results flagged for a closer look

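For 4 genes the ratio pointed in opposite directions in the 2 libraries, and these differences were not tested. Apol7c, a gene of mature dendritic cells, had a ratio of members over other kept cells of 17.0 in the CD122+CD49a+ library and 0.0437 in the LSM library. Of the 17 Apol7c UMIs in CD122+CD49a+ members, 16 were in 1 cell. Cxcr3, a chemokine receptor of T and NK cells that dendritic cells also express, had a ratio over other kept cells of 0.258 in the CD122+CD49a+ library (33.4 CPM in members and 129.6 CPM in the other cells) and 2.16 in the LSM library (24.9 and 11.5 CPM). Members thus held similar levels of Cxcr3 while the other cells differed. Apoe had a ratio of members over Cd209a cells of 0.133 in the CD122+CD49a+ library and 3.04 in the LSM library. The LSM ratio rested on 2 members with 5 or more UMIs of Kupffer cell genes. Without them the 193 other LSM members held 11 Apoe UMIs (7.04 CPM, against 46.8 CPM in LSM Cd209a cells), and both libraries then pointed the same way. Cxcl9 had a ratio over Cd209a cells of 0.334 in the CD122+CD49a+ library (77.0 CPM in members and 231 CPM in Cd209a cells) and 2.38 in the LSM library (533 and 225 CPM), on UMIs from 3 of 112 and 49 of 195 members.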

How the results depend on the processing

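No paired analysis was possible because each group has 1 library. In the CD122+CD49a+ library (8.97%) the share of members was 7.14% and 30.1% at minimums of 300 and 1000 genes, 7.13% and 11.7% at marker sums of 3 and 1, and 3.96%, 10.2% and 19.7% after thinning to 1000, 1500 and 2000 UMIs. In the LSM library (6.36%) it was 7.37% at 1000 genes, 4.37% and 10.5% at marker sums of 3 and 1, and 0.492%, 1.25% and 1.35% after thinning to 1000, 1500 and 2000 UMIs.

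Counts of genes moved with the minimum and the fold. With no UMI minimum, where a few UMIs decide a ratio, genes higher in members numbered 3450 (CD122+CD49a+) and 3887 (LSM) against other kept cells, 1116 and 2450 against Cd209a cells and 948 against Siglech cells, and 4460 were higher between the libraries. Genes lower numbered 2630 (CD122+CD49a+) and 1026 (LSM) against Cd209a cells, 3437 against Ccr7 Fscn1 cells and 3711 against Siglech cells. At 50 UMIs the numbers higher were 211 and 154, 73 and 208, 870 against Ccr7 Fscn1 cells, 300 against Siglech cells and 335 between the libraries, and the numbers lower 1291 against other CD122+CD49a+ cells, 103 and 338 against Cd209a cells, 532, 531 and 540. At a fold of 4 the numbers higher were 89 and 29, 77 and 78, 527, 216 and 130, and the numbers lower 722 and 596, 75 and 159, 413, 344 and 164, in the same sequence. TMM scaling gave 733 (CD122+CD49a+) and 395 (LSM) genes higher against other kept cells. Between the libraries, members chosen after thinning to 1500 UMIs gave 352 higher and 449 lower, and members with an Xcr1 UMI 566 higher.

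Among 137 gene results under 817 alternatives in all, 4 values turned direction where the reported ratio was 2-fold or more, all of Apoe. Between the libraries its log2 ratio was 1.14 without members with 5 or more Kupffer cell UMIs and 0.18 among members with an Xcr1 UMI. Over LSM Cd209a cells it was -2.73 without those Kupffer-marked members and -0.74 at a marker sum of 3. Another 6 passed inside 2-fold, for Clec9a, Rab7b and Naaa between the libraries and Cxcl9 over LSM Cd209a cells. The 137 included the 6 marker genes of the rule between the libraries, Clec9a and Rab7b among them. Their ratios are not read as a difference between the libraries, which holds for Cadm1 also (log2 ratio 4.65 to 5.54). Outside the rule, the log2 ratio between libraries ranged from 3.53 to 5.99 for Itgae and from 2.13 to 2.60 for Wdfy4. Turns of ratios that were inside 2-fold as reported were not counted. Between the libraries the log2 ratio changed sign for Id2 (-0.05 to 0.12), Ifi205 (-0.47 to 0.06) and Lyz2 (-0.17 to 0.57). Beyond the smaller numbers of genes, cells or UMIs that a setting leaves, the cause was not tested. Depth limits the CD122+CD49a+ library most, and low genes there may be missed.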

Other observations

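Barcodes under the minimum of 500 genes but within the mitochondrial limit met the marker rule in 2 of 348 cases in the CD122+CD49a+ library (0.575%) and in 0 of 43 in the LSM library. After thinning to 1500 UMIs, 97.2% of 107 CD122+CD49a+ members and 91.3% of 195 LSM members held 3 or more UMIs of the 25 cDC1 genes outside the rule, against 22.5% of CD122+CD49a+ Cd209a cells and 18.2% of LSM Cd209a cells. Among all other kept cells the shares were 32.5% in the CD122+CD49a+ library and 27.2% in the LSM library.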
